A study of Mus musculus with 48 samples.

Results

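The 6 genes described here encode receptors of the tumour necrosis factor receptor superfamily that are found on regulatory T cells: Tnfrsf4 (OX40), Tnfrsf9 (CD137), Tnfrsf18 (GITR), Tnfrsf1b (TNFR2), Cd27 and Fas. They were picked by gene symbol, so they are 6 of the 53345 genes in the deposited matrices, and all 6 passed the filter on low values in every fit. Splenic CD4+ Tregs and conventional T cells (Tcons) were profiled by bulk RNA-seq in female C57BL/6 mice aged 8 to 12 weeks. The mice received PBS or 25 µg of a human IL-2 fused to an Fc domain, either wild type (WT IL-2) or 1 of 2 attenuated variants, called H16R and the 3x mutein. In every group an antibody was given as 2 doses of 500 µg around the IL-2 dose, either an isotype control or an antibody that blocks MHC class II, and spleens were taken on day 4. MHC II blockade withholds the ligand through which CD4+ T cells receive their TCR signal. Each of the 8 Treg groups held 4 mice and each of the 8 Tcon groups held 2 mice, which were mice of the matching Treg group. All animals carried an antibody, so the isotype PBS group is antibody-treated and not untouched. Tregs were bead-purified, and Tcons were the CD25-negative flow-through of the same purification, not a sorted naive population.

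Receptors of this superfamily bind trimeric ligands on neighbouring cells and signal through TRAF adaptors to NF-kB or, where they carry a death domain, to caspases. OX40, CD137, GITR, TNFR2 and CD27 act as costimulatory receptors on T cells, and several of them are kept at high levels on Tregs or are raised by T cell activation. Fas is the death domain receptor of the set, and it can start apoptosis when bound by Fas ligand.

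Of the 6 genes, 4 lie on mouse chromosome 4 in GRCm38 (GENCODE vM21): Tnfrsf1b at 145213463 to 145246870 on the minus strand, Tnfrsf9 at 150914562 to 150946102, Tnfrsf4 at 156013843 to 156016612 and Tnfrsf18 at 156026164 to 156028895, the last 3 on the plus strand. Tnfrsf4 and Tnfrsf18 are near neighbours, with 9551 bases between them. Cd27 lies on chromosome 6 at 125232622 to 125237010, on the minus strand, and Fas on chromosome 19 at 34290666 to 34327772, on the plus strand. Genes on the opposite strand overlap 3 of them: Camta1 and Tnfrsf9, the antisense Gm16008 and Tnfrsf18, and Vamp1 and Cd27. Whether the counting used strand is not given in the sources used here. Vamp1 was the most abundant of the 3 partners in Tregs, at 23.4 to 34.8 CPM (counts scaled to the same library total), while Camta1 and Gm16008 stayed at 4.66 CPM or lower.

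The 250 bases before each RefSeq start site (GRCm38.p6) were searched on both strands for the letters of 4 motifs, since IL-2 signals through STAT proteins and the TCR and the receptors themselves through AP-1 and NF-kB. The RefSeq table gave 7 windows, 1 per gene and a second for Tnfrsf9. The STAT letters TTCNNNGAA stood in 4 of the 7 windows, against 7.02% of 32851 mouse promoters searched in the same way. The AP-1 letters TGANTCA stood in 2 of 7 (6.75% of all promoters), the NF-kB consensus in 1 of 7 (7.25%) and the forkhead letters GTAAACA in 0 of 7 (3.17%). The windows of Tnfrsf9, Tnfrsf1b and Fas with a STAT match are shown 5′ to 3′ with the STAT and AP-1 matches in capitals, because they set 2 genes that rose with WT IL-2 beside Fas, which has the letters too and did not pass with it. The Tnfrsf9 stretch stops where an annotated exon of the gene begins.
Tnfrsf9, downstream start, chr4:150927749-150927917, plus strand: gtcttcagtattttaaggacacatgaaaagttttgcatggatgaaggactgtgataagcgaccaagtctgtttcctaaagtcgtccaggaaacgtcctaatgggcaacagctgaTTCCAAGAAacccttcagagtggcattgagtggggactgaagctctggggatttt
Tnfrsf1b, chr4:145246871-145247120, minus strand: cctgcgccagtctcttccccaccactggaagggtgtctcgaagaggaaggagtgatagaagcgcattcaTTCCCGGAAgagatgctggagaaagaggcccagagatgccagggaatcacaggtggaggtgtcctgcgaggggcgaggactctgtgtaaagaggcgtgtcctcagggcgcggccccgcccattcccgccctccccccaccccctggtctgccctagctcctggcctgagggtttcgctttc
Fas, chr19:34290409-34290658, plus strand: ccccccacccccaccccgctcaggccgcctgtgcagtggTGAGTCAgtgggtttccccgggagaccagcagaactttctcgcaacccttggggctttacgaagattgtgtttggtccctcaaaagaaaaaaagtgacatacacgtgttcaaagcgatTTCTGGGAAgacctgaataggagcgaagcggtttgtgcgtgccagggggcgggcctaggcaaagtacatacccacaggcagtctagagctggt
The remaining STAT match was TTCACAGAA, 99 to 91 bases before the RefSeq start of Tnfrsf18, in a stretch that GENCODE annotates as an exon of another Tnfrsf18 transcript. The windows of Tnfrsf4, Cd27 and the upstream start of Tnfrsf9 held none of the 4 motifs. Beyond the exon boundary the Tnfrsf9 window also held the NF-kB match, 43 to 33 bases before the start as 2 overlapping matches, and an AP-1 match 15 to 9 bases before it. The AP-1 match of Fas lies 211 to 205 bases before its start. A match describes the letters and shows no binding.

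The libraries held 18.3 to 51.2 M expected counts in Tregs (median 40.7 M) and 31.3 to 51.95 M in Tcons (median 38.2 M). The lowest count of any of the 6 genes in any library was 507, for Fas, so counting error was small for all of them. Foxp3, which defines Tregs, stood at 692 to 1179 CPM in Treg libraries and 48.4 to 186 CPM in Tcon libraries. Other cells left a measurable trace. The summed level of 8 B cell markers was 704 CPM in isotype PBS replicate 1 and 651 CPM in MHC II block WT IL-2 replicate 1, against 28.5 to 169.5 CPM in the other Treg libraries, so these 2 libraries stand apart, and calls of the 6 genes that changed without both are given beside the results. MHC II block WT IL-2 replicate 1 also had the highest Lyz2 (147 CPM), Cd68 (34.6 CPM) and Cd8a (21.2 CPM) of the Treg libraries. The sum of 4 plasma cell markers ranged from 79.2 to 3036 CPM over Treg libraries and moved with treatment. Among Tcons, isotype WT IL-2 replicate 2 stood apart, with 5 Treg markers summing to 1490 CPM against 596 CPM in its partner library.

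Per kilobase, which allows genes to be compared, Tnfrsf4 was the most abundant of the set in isotype PBS Tregs at 192 ± 18.5 FPKM (SD, n = 4). Tnfrsf18 followed at 145 ± 8.27 FPKM, Cd27 at 133 ± 6.96, Tnfrsf9 at 101 ± 4.09 and Tnfrsf1b at 101 ± 8.73. Fas was far lower, at 21.6 ± 1.93 FPKM. The ranges of Tnfrsf9 and Tnfrsf1b overlapped, and Tnfrsf9 was the higher in replicates 1 and 2 and the lower in replicates 3 and 4. Those of Tnfrsf18 and Cd27 overlapped too, at 133 to 152 and 122 to 137 FPKM. Within each library, however, Tnfrsf18 stood above Cd27, at 152 against 137, 146 against 135, 149 against 136 and 133 against 122 FPKM. Fas was the lowest of the 6 in all 8 Treg groups. Tnfrsf4 led in 6 Treg groups and Cd27 in the other 2, MHC II block with PBS and with WT IL-2.

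Tregs exceeded Tcons in all 6 genes in mice given PBS. The gap was widest for Tnfrsf4 and Tnfrsf9 and narrowest for Cd27, a receptor that naive Tcons carry as well. In isotype PBS mice Tnfrsf4 read 218, 177, 214 and 190.2 CPM in the 4 Treg libraries and 30.5 and 22.2 CPM in the 2 Tcon libraries. Cd27 read 206, 204, 205 and 187 CPM in Tregs and 142 and 136 CPM in Tcons. Fas read 31.4, 30.8, 29.8 and 27.7 CPM in Tregs and 16.7 and 14.5 CPM in Tcons. For each of the 6 genes the Treg and Tcon libraries of isotype PBS mice did not overlap, and the share of all genes without such overlap was not counted. In the fit over the 16 mice with both cell types, averaged over the 2 antibody arms and with the mouse as a block (edgeR's quasi-likelihood test, Benjamini-Hochberg over 12844 genes), Tnfrsf4 was 6.89-fold higher in Tregs (95% interval 5.48 to 8.66, adjusted p = 1.11e-09) and Tnfrsf9 6.04-fold (4.95 to 7.35, adjusted p = 4.67e-10). Tnfrsf18 was 3.57-fold higher, Tnfrsf1b 2.55-fold, Fas 1.95-fold and Cd27 1.51-fold (1.37 to 1.67, adjusted p = 3.17e-06). At this threshold, an adjusted p under 0.1, 24.5% of all genes tested were higher in Tregs of PBS mice. With the mouse as a block, these p-values rest on how the difference between cell types varies from mouse to mouse. That spread is pooled over the 16 mice and includes any difference of the gap between the arms.

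**Figure D1:**
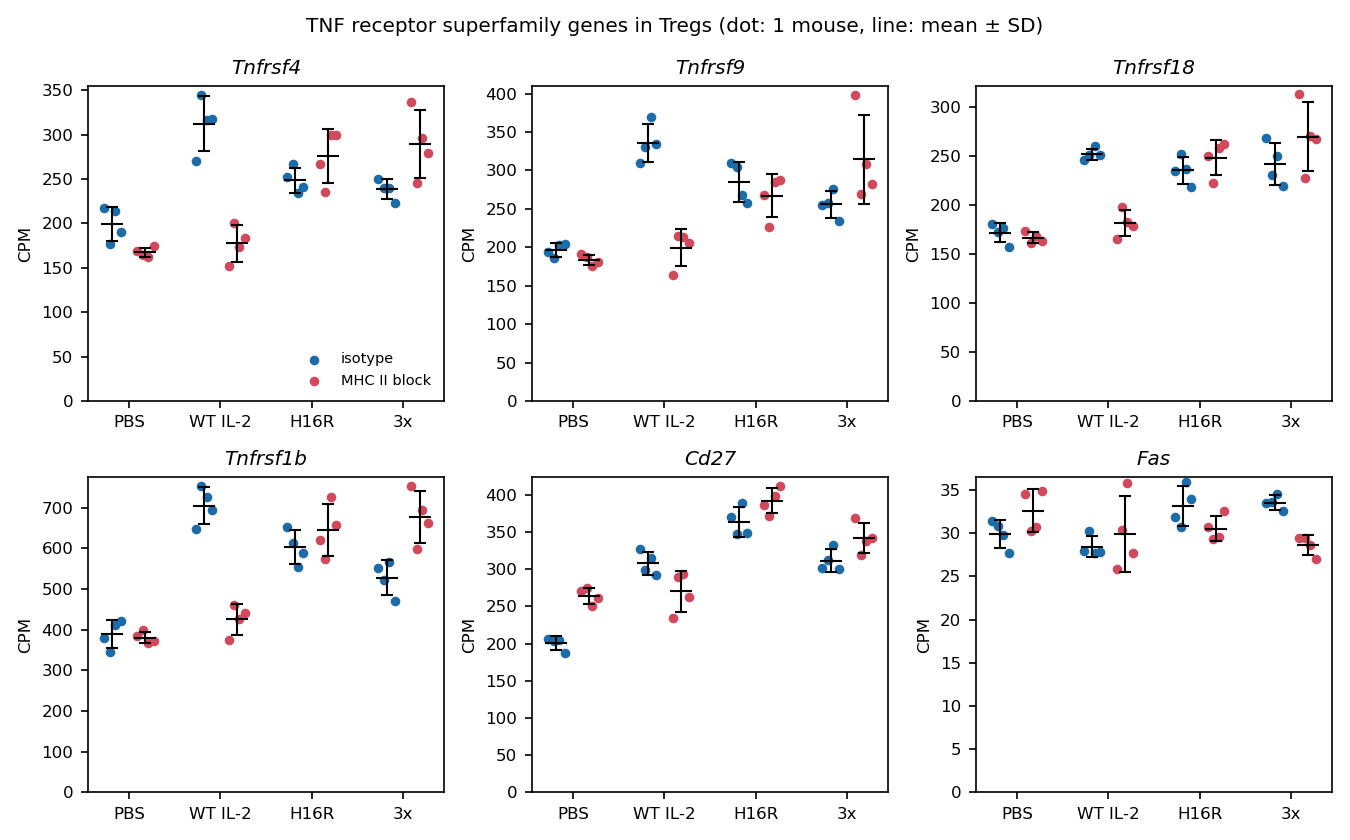
CPM of each gene (y axis, from 0) in the 32 Treg libraries by treatment (x axis), with 1 dot per mouse and lines at mean ± SD of the 4 mice. Blue isotype groups given WT IL-2 rise well above PBS for every gene except Fas, whereas for the same genes the red MHC II block groups given WT IL-2 stay near PBS and those given H16R or the 3x mutein do not.

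The first question was how the receptors respond to IL-2 when MHC II is available. Of the 6 genes, 5 rose with WT IL-2 and all 6 with either mutein, against 26.0%, 31.4% and 31.3% of all genes tested that were higher with WT IL-2, H16R and the 3x mutein. Tnfrsf1b, which encodes a receptor for TNF itself, gave the widest change with WT IL-2, and Cd27 the widest with both muteins. The 3 comparisons share the isotype PBS libraries. The median log2 fold change of the 6 genes was 0.67, 0.56 and 0.47 for WT IL-2, H16R and the 3x mutein, and the median over all 12392 genes tested was -0.01 in each. In bulk samples a smaller share of a cell type and less RNA per cell cannot be told apart.

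Tnfrsf1b read 381, 346, 412 and 420.4 CPM in isotype PBS Tregs and 647, 754, 726 and 695 CPM with WT IL-2. It read 654, 614, 555 and 588 CPM with H16R and 552, 521, 568 and 471 CPM with the 3x mutein. No IL-2 library overlapped the PBS libraries. The gain was 1.85-fold with WT IL-2 (95% interval 1.66 to 2.07, adjusted p = 5.05e-10), 1.62-fold with H16R and 1.41-fold with the 3x mutein.

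Tnfrsf9, which is induced on activated T cells, read 194, 185, 203 and 204 CPM with PBS and 309.8, 330.4, 369.6 and 334 CPM with WT IL-2. It read 309.8, 304, 267 and 258 CPM with H16R and 256, 257, 276 and 234 CPM with the 3x mutein. Again every IL-2 library lay above every PBS library. WT IL-2 raised it 1.75-fold (1.53 to 2.00, adjusted p = 1.06e-07), H16R 1.52-fold and the 3x mutein 1.35-fold (1.18 to 1.55, adjusted p = 0.000275).

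Tnfrsf4 had its 4 WT IL-2 libraries at 271, 345, 316 and 318 CPM, a 1.60-fold gain over PBS (1.41 to 1.82, adjusted p = 8.01e-07). With H16R it read 252, 267, 235 and 241 CPM and with the 3x mutein 251, 240.5, 240.0 and 224 CPM. The log2 fold changes of 0.38 and 0.31 were the smallest of the 5 costimulatory receptors with each mutein, although no mutein library overlapped the PBS range of 177 to 218 CPM.

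Tnfrsf18 took much the same level with all 3 forms of IL-2. It read 181, 173, 176 and 158 CPM with PBS, 246, 251, 259.8 and 251 CPM with WT IL-2, 234, 252, 237 and 218 CPM with H16R, and 268, 231, 249.6 and 219.6 CPM with the 3x mutein. The log2 fold changes were 0.58 (0.43 to 0.73), 0.52 (0.37 to 0.67) and 0.55 (0.40 to 0.70), with adjusted p from 3.29e-07 to 8.84e-07 in edgeR's quasi-likelihood test.

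Cd27, the receptor for CD70, took another order. Its libraries read 327, 299.5, 315 and 292 CPM with WT IL-2, 370.4, 347, 389.6 and 348 CPM with H16R and 301, 312, 333 and 300.2 CPM with the 3x mutein. Those of H16R lay above all others of the isotype arm. The gain was 1.90-fold with H16R (1.74 to 2.07, adjusted p = 7.51e-13), 1.62-fold with the 3x mutein and 1.57-fold with WT IL-2.

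Fas moved least. It read 28.0, 30.2, 27.6 and 27.9 CPM with WT IL-2, within the range of the PBS libraries but for 1 at 27.6, and its log2 fold change was -0.04 (95% interval -0.19 to 0.10, adjusted p = 0.648). With H16R it read 31.9, 30.7, 35.9 and 34.0 CPM and with the 3x mutein 33.5, 33.5, 34.6 and 32.6 CPM. Both muteins gave a 1.16-fold gain, with adjusted p of 0.0122 and 0.0102.

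Levels of other cells' markers moved with these comparisons. The plasma cell marker sum fell from 1501 to 1813 CPM with PBS to 604 to 736 CPM with WT IL-2, 174 to 414 CPM with H16R and 79.2 to 171 CPM with the 3x mutein. The sum of 5 general T cell markers rose from 1430 to 1733 CPM with PBS to 2131 to 2360 CPM with WT IL-2, and that of the 5 Treg markers from 2791 to 3427 CPM to 4173 to 4681 CPM. Foxp3 alone rose by a log2 fold change of 0.43, 0.64 and 0.61 for WT IL-2, H16R and the 3x mutein. Their part in the receptors' changes was not tested.

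**Figure D2:**
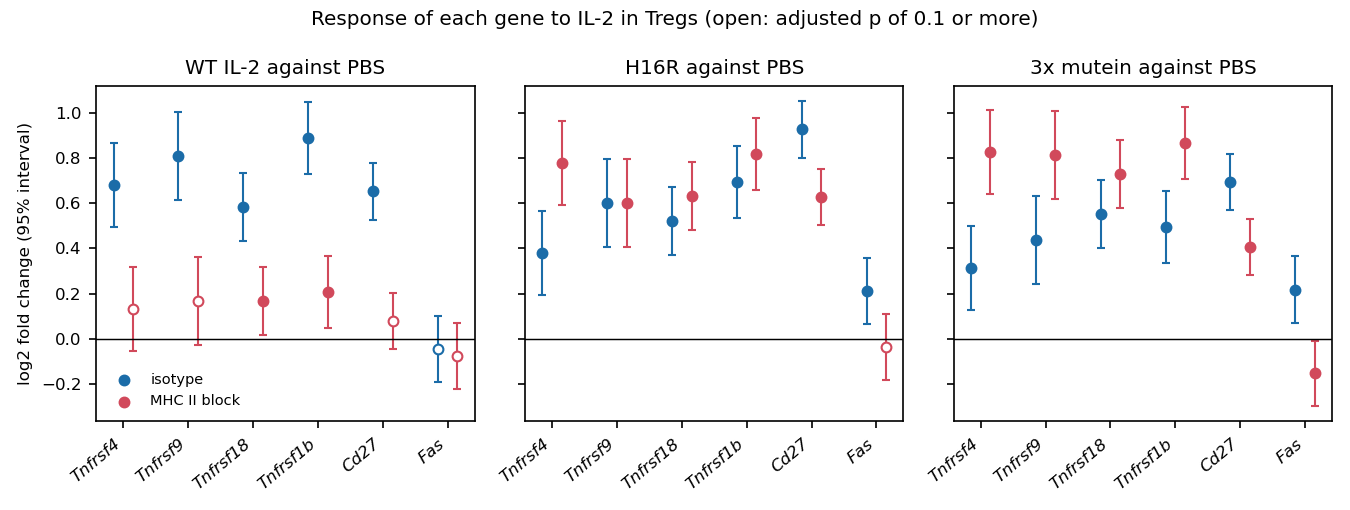
Log2 fold change against PBS (y axis, with 95% intervals) of each gene (x axis) in Tregs given WT IL-2, H16R or the 3x mutein, in the isotype arm (blue) and under MHC II block (red). Filled points had an adjusted p under 0.1. Under WT IL-2 the red points of the 5 costimulatory receptors lie at 0.08 to 0.21 and the blue ones at 0.58 to 0.89, while under the 3x mutein 4 of the 5 red points lie above the blue ones.

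The second question was whether the response holds when MHC II is blocked. With WT IL-2 it mostly did not. Only Tnfrsf1b and Tnfrsf18 passed the threshold over block PBS, at 1.15-fold and 1.12-fold, against 21.9% of all genes tested that were higher. DESeq2 also called 2 genes, but neither call held with total counts in place of TMM, with no CPM filter or with limma on FPKM. With H16R 5 of 6 genes rose (32.7% of all genes were higher), and with the 3x mutein 5 rose and Fas fell (73.0% of all genes were called in either direction). The 6 genes' median log2 fold change was 0.15, 0.63 and 0.77 for WT IL-2, H16R and the 3x mutein, beside medians over all genes of 0.02, -0.02 and -0.04. Marker sums also moved under blockade. From PBS to the muteins the Treg marker sum went from 2967 to 3213 CPM to 3880 to 4540 CPM, the T cell marker sum from 1725 to 1858 CPM to 2034 to 2514 CPM, and the NK and CD8 T cell sum from 43.6 to 51.7 CPM to 101 to 268 CPM. With WT IL-2 the Treg marker sum was 2579, 3395, 3607 and 3330 CPM in replicates 1 to 4, so only replicate 1, which stands apart, was not above the PBS libraries. The NK and CD8 T cell sum was 112 to 208 CPM. The myeloid sum was 197 to 915 CPM with WT IL-2 against 104 to 164 CPM with PBS, and the plasma cell sum 1512 to 3036 CPM against 588 to 1912 CPM. Their part in the changes was not tested.

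Under blockade Tnfrsf1b read 385, 399, 368 and 372 CPM with PBS and 374, 462, 426 and 441 CPM with WT IL-2, and the 2 groups overlapped. It read 622, 575, 727 and 657 CPM with H16R and 754, 598, 694 and 663 CPM with the 3x mutein, all far above both. The log2 fold change was 0.21 with WT IL-2 (95% interval 0.05 to 0.36, adjusted p = 0.0454), 0.82 with H16R (0.66 to 0.98) and 0.87 with the 3x mutein (0.71 to 1.02). The call with WT IL-2 was lost on leaving out block WT IL-2 replicate 2 or 4 or block PBS replicate 3 (adjusted p 0.101 to 0.153). That of Tnfrsf18 (adjusted p = 0.0861) was lost on leaving out any of 9 libraries (0.115 to 0.267): block WT IL-2 replicates 2, 3 or 4, block PBS replicates 2, 3 or 4, block 3x mutein replicates 3 or 4, or isotype WT IL-2 replicate 2.

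Tnfrsf4 read 169, 164, 162 and 174 CPM with block PBS and 152, 201, 174 and 184 CPM with block WT IL-2, so the WT IL-2 libraries enclosed those of PBS. With H16R it read 267, 236, 299 and 299.7 CPM and with the 3x mutein 337, 246, 296 and 279 CPM. H16R raised it 1.71-fold (1.51 to 1.95, adjusted p = 3.25e-08) and the 3x mutein 1.77-fold (1.56 to 2.02, adjusted p = 6.01e-09), whereas with WT IL-2 the log2 fold change was 0.13 (-0.05 to 0.32, adjusted p = 0.29).

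Tnfrsf9 read 191, 187, 175 and 181 CPM with block PBS and 164, 215, 213 and 205 CPM with block WT IL-2. With H16R it read 269, 227, 285 and 287 CPM and with the 3x mutein 398, 269.7, 309 and 282 CPM. Replicate 1 of the 3x mutein was the highest of all Treg libraries for this gene, and replicate 1 of WT IL-2 the lowest. The 3x mutein raised it 1.76-fold (1.54 to 2.01) and H16R 1.52-fold, and the log2 fold change with WT IL-2 was 0.17 (-0.02 to 0.36, adjusted p = 0.186).

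Tnfrsf18 read 173, 161, 169 and 163 CPM with block PBS, 165, 198, 183 and 179 CPM with WT IL-2, 249.7, 223, 258 and 263 CPM with H16R and 314, 227, 271 and 268 CPM with the 3x mutein. The muteins' libraries overlapped each other and stood clear of PBS and WT IL-2. Cd27 started higher under blockade, at 271, 275, 250.1 and 261 CPM with PBS, and read 235, 289.8, 294 and 262 CPM with WT IL-2. It reached 387, 372, 398 and 412 CPM with H16R, its highest group, and 369, 319, 339 and 342 CPM with the 3x mutein. H16R raised Cd27 1.55-fold over block PBS (1.42 to 1.68) and the 3x mutein 1.33-fold (1.22 to 1.44), and the log2 fold change with WT IL-2 was 0.08 (-0.04 to 0.20, adjusted p = 0.337). Without block WT IL-2 replicate 1, the library with the high B cell sum, Tnfrsf9 and Cd27 also passed the threshold with WT IL-2 (adjusted p = 0.0525 and 0.082, and 0.0524 and 0.0795 without both libraries that stand apart).

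Fas read 34.5, 30.3, 30.7 and 34.9 CPM with block PBS, 25.8, 30.3, 35.8 and 27.7 CPM with WT IL-2, 30.7, 29.3, 29.6 and 32.6 CPM with H16R and 29.4, 29.4, 28.7 and 27.0 CPM with the 3x mutein. The 3x mutein libraries all lay below those of PBS. The fall was 0.900-fold (0.814 to 0.995, adjusted p = 0.0584), and it was lost on leaving out block PBS replicate 1 or 4 or block 3x mutein replicate 3 or 4 (adjusted p 0.123 to 0.217).

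The difference between the arms was then tested itself, as the interaction of IL-2 with blockade. With WT IL-2 the response of 5 of 6 genes was smaller under blockade, where 7.98% of all genes tested had a negative interaction. The log2 differences of response were -0.68 for Tnfrsf1b (95% interval -0.91 to -0.46, adjusted p = 0.000147), -0.64 for Tnfrsf9, -0.57 for Cd27, -0.55 for Tnfrsf4 and -0.41 for Tnfrsf18. Fas had -0.03 (-0.24 to 0.17, adjusted p = 0.875).

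The muteins went the other way or split. For the 3x mutein 5 interactions passed, where 39.0% of all genes did in either direction: Tnfrsf4 at 0.51 (0.25 to 0.77, adjusted p = 0.00369), Tnfrsf9 at 0.38 and Tnfrsf1b at 0.37 had the larger rise under blockade, Cd27 at -0.29 the smaller one, and Fas at -0.37 had risen with isotype and fallen under blockade. For H16R Tnfrsf4 at 0.40 (0.14 to 0.66, adjusted p = 0.0424) and Cd27 at -0.30 (-0.47 to -0.12, adjusted p = 0.0235) passed, where 19.1% of all genes did, and Fas had -0.25 (adjusted p = 0.103). Without both libraries with high B cell sums Fas passed as well, at -0.28 (adjusted p = 0.0663). The call of Tnfrsf4 ended without block H16R replicate 3 (adjusted p = 0.101), and that of Tnfrsf9 for the 3x mutein without block 3x mutein replicate 1 (0.141). Each interaction holds the difference between the arms with PBS. For Cd27 block PBS stood 0.38 above isotype PBS on the log2 scale, while block against isotype was -0.19 with WT IL-2, 0.08 for H16R and 0.09 for the 3x mutein. For Tnfrsf4 the difference with PBS was -0.28, and with the 3 forms of IL-2 it was -0.82, 0.12 and 0.24. The Cd27 libraries of the 2 arms overlapped with H16R.

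**Figure D3:**
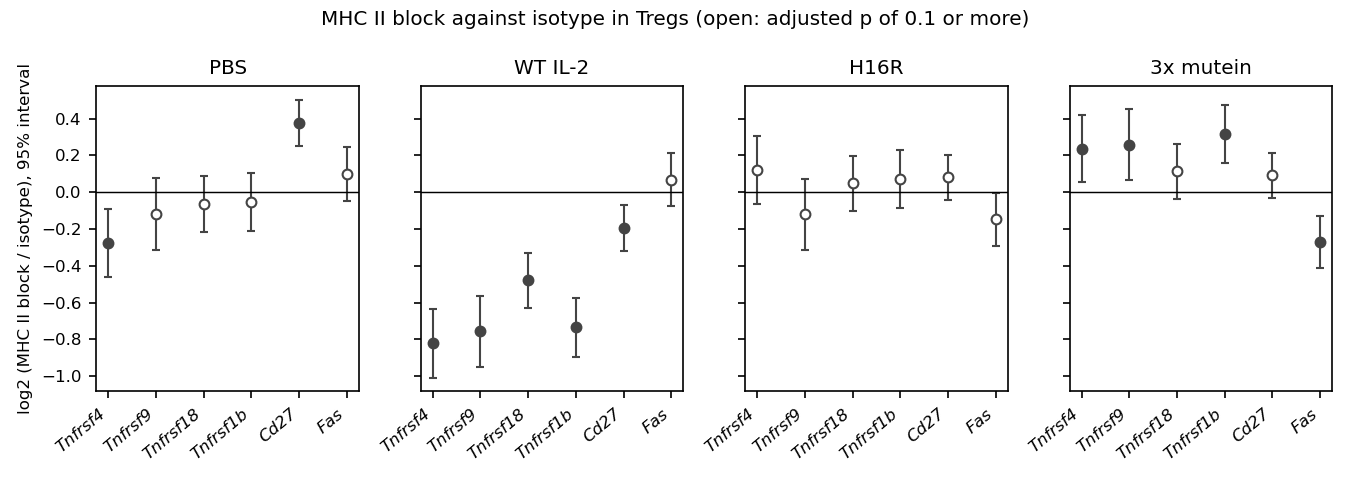
Log2 ratio of MHC II block over isotype (y axis, with 95% intervals) for each gene (x axis) in Tregs given PBS, WT IL-2, H16R or the 3x mutein. Filled points had an adjusted p under 0.1. With WT IL-2 5 genes lie below 0, at -0.19 to -0.82, whereas with H16R none is filled.

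Read as blockade against isotype within each treatment, the same libraries gave a direct view of the blocked level. With WT IL-2, 5 of 6 genes were lower under blockade (15.3% of all genes were lower): Tnfrsf4 fell to 0.566-fold (0.497 to 0.643, adjusted p = 1.85e-07), Tnfrsf9 to 0.592-fold, Tnfrsf1b to 0.601-fold, Tnfrsf18 to 0.717-fold and Cd27 to 0.874-fold (0.803 to 0.952, adjusted p = 0.0168). For the first 4 the 2 groups did not overlap, and for Cd27 they did. The share of all genes without overlap was not counted. With H16R no gene passed (30.7% of all genes did in either direction). Fas alone had an unadjusted p under 0.05, DESeq2 and limma on FPKM also called 0 genes, and the log2 ratios ran from -0.15 to 0.12. The interval for Tnfrsf4 with H16R was -0.06 to 0.31 and that for Tnfrsf1b -0.09 to 0.23.

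With the 3x mutein Tnfrsf1b was 1.25-fold higher under blockade (1.12 to 1.39, adjusted p = 0.00144), Tnfrsf9 1.20-fold and Tnfrsf4 1.18-fold, while Fas fell by 0.27 on the log2 scale (-0.41 to -0.13, adjusted p = 0.00251). At that threshold 54.1% of all genes changed in either direction. The calls of Tnfrsf4 and Tnfrsf9 rested on block 3x mutein replicate 1 and were lost without it (adjusted p = 0.191 and 0.265). With PBS, where 14.1% of all genes were called, Cd27 was higher under blockade by 0.38 on the log2 scale (0.25 to 0.50, adjusted p = 0.000173), with no overlap of the 4 libraries of each arm. Tnfrsf4 fell to 0.826-fold with PBS (0.726 to 0.940, adjusted p = 0.055), a call lost on leaving out isotype PBS replicate 1 or 3 or block PBS replicate 2 or 3 (0.114 to 0.145). Without both libraries with high B cell sums it had an adjusted p of 0.104, and Fas then passed for H16R (0.0905). Marker sums moved here too: with WT IL-2 the plasma cell sum was 1512 to 3036 CPM and the myeloid sum 197 to 915 CPM under blockade, against 604 to 736 CPM and 110.2 to 139 CPM with isotype, and the Treg marker sum was 2579 to 3607 CPM against 4173 to 4681 CPM. In the block groups given any IL-2 the NK and CD8 T cell sum was 101 to 268 CPM against 28.1 to 71.2 CPM over all isotype groups. Their part in these differences was not tested.

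The forms of IL-2 were given at 1 dose and spleens were taken on day 4, so they were compared at that dose and day only. In a separate experiment, the paper reports that half-life and serum exposure differed between the forms. An equal dose was therefore not an equal exposure. The part of exposure in the differences between forms was not tested. With isotype, H16R left Tnfrsf4 lower than WT IL-2 did, at 0.814-fold (0.716 to 0.924, adjusted p = 0.0287), and Cd27 higher, at 1.21-fold (1.11 to 1.32, adjusted p = 0.00382). Fas was 1.19-fold higher and Tnfrsf1b 0.874-fold (adjusted p = 0.096), among 18.6% of all genes called. The call of Tnfrsf1b was lost on leaving out any of 17 libraries, 6 of them in the groups compared (isotype H16R replicates 2, 3 and 4 and isotype WT IL-2 replicates 2, 3a and 3b) and the other 11 in groups that only share the estimate of the spread (adjusted p 0.1002 to 0.295). That of Tnfrsf4 was lost without isotype H16R replicate 3 or isotype WT IL-2 replicate 2 (0.111 and 0.122), and that of Fas without isotype H16R replicate 3 (0.111). The 3x mutein was below WT IL-2 for Tnfrsf1b at 0.761-fold (0.682 to 0.849, adjusted p = 0.000387), Tnfrsf9 at 0.774-fold and Tnfrsf4 at 0.776-fold, and above it for Fas at 1.20-fold, where 34.7% of all genes were called. Tnfrsf18 was not separated from WT IL-2 with either mutein, with log2 intervals of -0.21 to 0.09 for H16R and -0.18 to 0.12 for the 3x mutein.

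Under blockade both muteins stood above WT IL-2 for all genes but Fas. Of the 6 genes, 5 were higher with H16R than with WT IL-2 (25.5% of all genes were), from 1.35-fold for Tnfrsf9 to 1.56-fold for Tnfrsf4 (1.38 to 1.78, adjusted p = 2.8e-06). All but Fas were also higher with the 3x mutein (30.0% of all genes), from 1.25-fold for Cd27 to 1.62-fold for Tnfrsf4 (1.42 to 1.84, adjusted p = 2.85e-07). Fas did not pass, with a log2 fold change of 0.04 (-0.10 to 0.18) for H16R and -0.08 (-0.22 to 0.07) for the 3x mutein. Without both libraries with high B cell sums Fas passed as lower with the 3x mutein, at -0.14 (adjusted p = 0.09), and leaving out block WT IL-2 replicate 1 alone gave -0.14 as well (adjusted p = 0.0946). It passed as higher with H16R, at 0.13 (adjusted p = 0.0979), without block WT IL-2 replicate 3. Tnfrsf4 and Tnfrsf1b thus changed sides between the arms with both muteins and Tnfrsf9 with the 3x mutein, while Cd27 was above WT IL-2 with H16R in both. The comparisons within an arm share its WT IL-2 libraries. Under blockade the Treg marker sum was 2579 to 3607 CPM with WT IL-2 and 3880 to 4540 CPM with the muteins, the plasma cell sum 1512 to 3036 CPM against 523 to 1328 CPM, and the myeloid sum 197 to 915 CPM against 176 to 263 CPM. Their part in these differences was not tested.

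The difference between the arms in the gap of mutein to WT IL-2 was tested as an interaction with blockade, which does not ask whether the gap changes sign. It passed for 5 of 6 genes with H16R (12.6% of all genes had a positive interaction) and for all 6 with the 3x mutein (43.8% in either direction). For H16R it ran from 0.27 for Cd27 to 0.94 for Tnfrsf4 (0.68 to 1.20, adjusted p = 3.02e-05), while Fas had -0.22 (adjusted p = 0.134). Without both libraries with high B cell sums Fas passed too, at -0.28 (adjusted p = 0.0419). For the 3x mutein it was 1.06 for Tnfrsf4, 1.05 for Tnfrsf1b (0.83 to 1.28, adjusted p = 5.56e-08), 1.01 for Tnfrsf9, 0.59 for Tnfrsf18 and 0.29 for Cd27, and -0.34 for Fas.

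Between the 2 muteins, Cd27 was the gene that differed in both arms. It was lower with the 3x mutein than with H16R, at 0.851-fold with isotype (0.781 to 0.926, adjusted p = 0.0164) and 0.858-fold under blockade (0.788 to 0.934, adjusted p = 0.0102). No other gene of the 6 passed in either arm with edgeR, where 11.5% and 25.2% of all genes were called. The widest other differences were Tnfrsf1b with isotype at -0.20 on the log2 scale (-0.36 to -0.04, adjusted p = 0.115) and Tnfrsf9 under blockade at 0.21 (0.02 to 0.41, adjusted p = 0.116). Both passed without the 2 libraries with high B cell sums (adjusted p = 0.0869 and 0.0814), and both passed with DESeq2 on all libraries (0.09055 and 0.0868). The T cell marker sum was 1974 to 2119 CPM with the 3x mutein against 2259 to 2328 CPM with H16R under isotype, and 2034 to 2229 against 2259 to 2514 CPM under blockade. The plasma cell sum was 79.2 to 171 against 174 to 414 CPM with isotype, and the 2 groups overlapped under blockade. Their part in these differences was not tested.

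**Figure D4:**
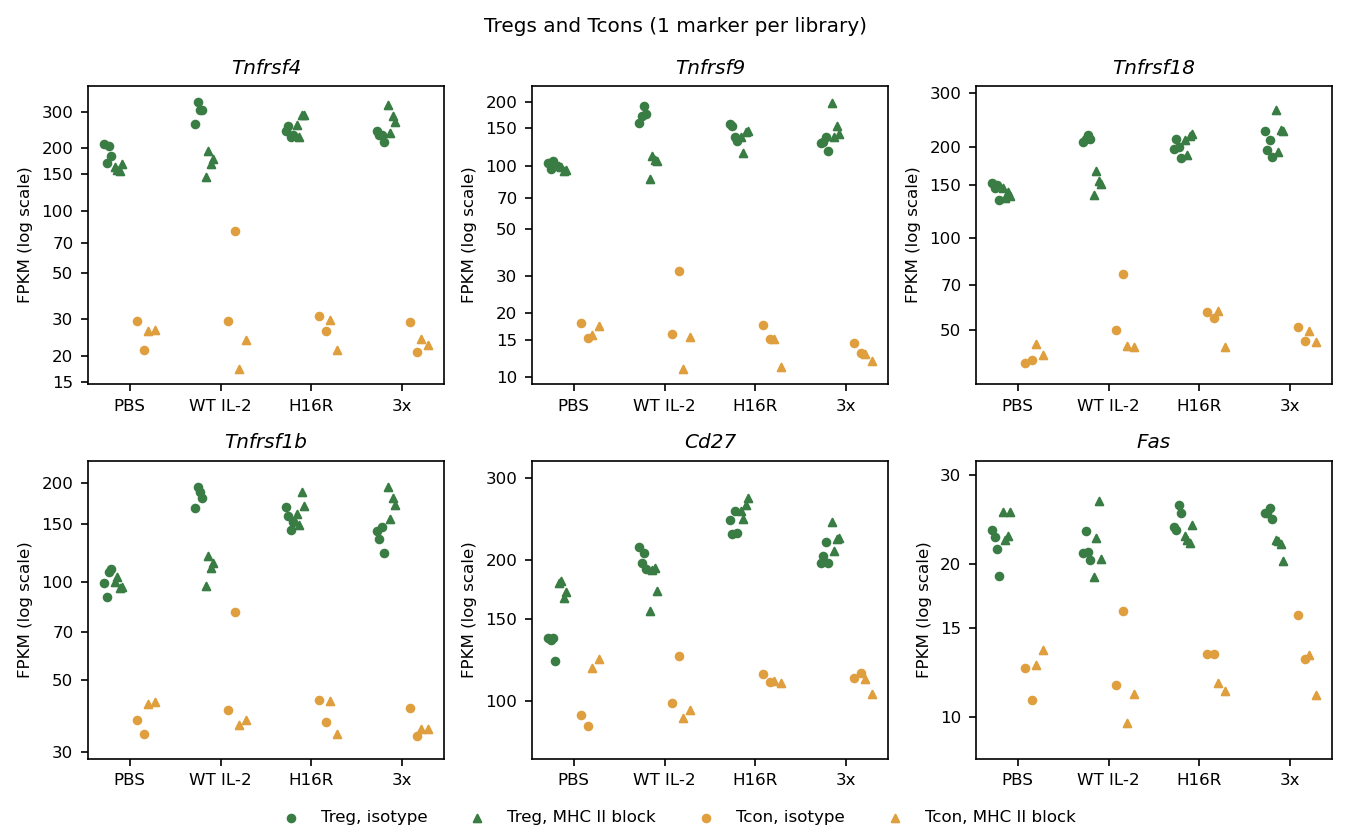
FPKM (y axis, log scale) of each gene in Treg (green) and Tcon (orange) libraries by treatment (x axis), 1 marker per library, circles for isotype and triangles for MHC II block. Treg libraries lie above the Tcon libraries of the same arm and treatment for all 6 genes, and the highest Tcon library of each gene is isotype WT IL-2 replicate 2.

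The third question was whether the response belongs to Tregs. With every form of IL-2 all 6 genes were higher in Tregs than in Tcons of the same mice, where 32.0%, 36.4% and 36.7% of all genes were higher with WT IL-2, H16R and the 3x mutein. Tnfrsf9 was 7.89-fold higher with WT IL-2, 10.4-fold with H16R and 12.5-fold with the 3x mutein (10.2 to 15.4). Tnfrsf4 was 7.35-fold, 9.84-fold and 11.4-fold higher (8.97 to 14.4 with the 3x mutein). Fas held at 1.85-fold to 2.01-fold and Cd27 at 1.91-fold to 2.34-fold.

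The widening of the gap relative to PBS was tested as the interaction of IL-2 with cell type, over both antibody arms. It passed for 4 genes with H16R (21.8% of all genes had a positive interaction) and for 5 with the 3x mutein (24.3%). Tnfrsf9 had 0.79 with H16R (0.40 to 1.17, adjusted p = 0.00505) and Tnfrsf1b 0.78, Cd27 0.63 and Tnfrsf4 0.51 (adjusted p = 0.0713). With the 3x mutein Tnfrsf9 had 1.06 (0.67 to 1.44, adjusted p = 0.000464), Tnfrsf1b 0.85, Tnfrsf4 0.72, Cd27 0.44 and Tnfrsf18 0.43. The H16R call of Tnfrsf4 was lost on leaving out any of 5 mice, isotype PBS mouse 1, isotype H16R mouse 2, block PBS mouse 1 or 2 or block H16R mouse 2 (adjusted p 0.111 to 0.169). With WT IL-2 only Cd27 passed, at 0.34 (0.14 to 0.55, adjusted p = 0.0516), among 12.2% of all genes in either direction. That call was lost without isotype PBS mouse 1, isotype WT IL-2 mouse 1 or block WT IL-2 mouse 2 (0.115 to 0.178). Without isotype WT IL-2 mouse 2, whose Tcon library stood apart, Tnfrsf9 and Tnfrsf1b passed as well (adjusted p = 0.0277 and 0.0659). Markers of other cells moved in the Tcon libraries of these comparisons. Under blockade the myeloid sum was 185 CPM in both PBS libraries, 890 to 1236 CPM with WT IL-2 and 578 to 619 CPM with the muteins, and the NK and CD8 T cell sum was 69.0 to 75.5 CPM with PBS and 287 to 499.5 CPM with IL-2. The T cell marker sum there was 2136 to 2156 CPM with PBS and 1363 to 1779 CPM with IL-2. With isotype the B cell sum was 1024 to 1098 CPM with PBS and 165 to 490 CPM with IL-2. Their part in the differences between cell types was not tested.

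In Tcons themselves most libraries lay close together, with 1 exception. Over the 16 Tcon libraries Tnfrsf4 ran from 17.9 to 83.3 CPM with a median of 27.4, Tnfrsf9 from 21.0 to 63.1 CPM with a median of 28.4, and Tnfrsf1b from 129.8 to 311 CPM with a median of 145. The highest value of each of these 3 genes, of Tnfrsf18 (90.2 CPM), of Cd27 (190.1 CPM) and of Fas (21.8 CPM) came from isotype WT IL-2 replicate 2. Its partner library read 30.6 CPM for Tnfrsf4, 29.6 CPM for Tnfrsf9 and 156 CPM for Tnfrsf1b, close to the PBS libraries, and 59.4 CPM for Tnfrsf18, above the 46.4 and 47.4 CPM of the isotype PBS libraries, and its Foxp3 level was 99.9 CPM against 186 CPM in replicate 2. The part of Treg markers in that library's values was not tested.

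Tnfrsf18 was the 1 gene that passed in Tcons, at 1.29-fold with WT IL-2 (1.05 to 1.59, adjusted p = 0.0786, 27.2% of all genes called) and 1.28-fold with H16R (1.04 to 1.57, adjusted p = 0.0824, 31.1%). The first call was lost on leaving out isotype PBS replicate 1 or 2, isotype WT IL-2 replicate 2, isotype 3x mutein replicate 1 or block PBS replicate 2 (0.107 to 0.189), and the second on leaving out any of 8 (isotype PBS 1 or 2, isotype H16R 1 or 2, isotype 3x mutein 1, block PBS 2, block WT IL-2 1 or block H16R 1, with 0.105 to 0.220). Treg markers moved in these Tcon libraries as well. With isotype their sum was 415 to 477 CPM with PBS, 596 to 1490 CPM with WT IL-2 and 743 to 756 CPM with H16R. Under blockade it was 516 to 546, 312 to 426 and 528 to 540 CPM. Foxp3 had a log2 fold change of 0.52 with WT IL-2 and 0.73 with H16R in Tcons. Their part in the Tnfrsf18 calls was not tested. With the 3x mutein no gene passed (9.88% of all genes did). The count was also 0 at an unadjusted p under 0.05, with DESeq2 and with limma. Blockade against isotype gave 0 calls (28.9% of all genes), with 1 gene, Tnfrsf9, at an unadjusted p under 0.05 (log2 ratio -0.37, -0.71 to -0.03), which DESeq2 called and limma did not. That fit holds 1 arm term for all treatments, so opposite effects can cancel. Mean Cd27 with PBS was 184 CPM under blockade against 139 CPM with isotype, and the libraries did not overlap. With WT IL-2 it was 144 against 171 CPM, with H16R 169 against 172 CPM and with the 3x mutein 164 against 173 CPM. Blockade was not tested within each treatment in Tcons. The interval for Tnfrsf4 with the 3x mutein in Tcons was -0.81 to 0.58, which includes the 0.31 of isotype Tregs and not the 0.83 of Tregs under blockade.

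Across the 8 Treg groups, Tnfrsf4, Tnfrsf9, Tnfrsf18 and Tnfrsf1b fell into the same 2 sets. The 5 groups of isotype IL-2 and of mutein under blockade were at the top, and both PBS groups and block WT IL-2 were at the bottom, with a gap between the lowest library of the neighbouring upper group and the highest of the lower one. Neighbours within either set overlapped. How many of all genes have such a gap was not counted. Cd27 had its single gap below block PBS, with isotype PBS alone at the bottom. For Fas every group overlapped its neighbours in the order.

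Over the 32 Treg libraries, Tnfrsf4, Tnfrsf9, Tnfrsf18 and Tnfrsf1b had Pearson correlations of 0.92 to 0.96 with one another on log2 CPM. The libraries share treatment and depth, so this describes the set and carries no test. Cd27 had 0.64 to 0.79 with these 4, and Fas -0.19 to 0.19 with the others. Among all genes tested, the pattern most like that of Tnfrsf4 was that of Tnfrsf1b (0.95), and the same gene came first for Tnfrsf9 (0.96). Tnfrsf1b itself was most like Icos (0.96), a costimulatory receptor of activated T cells, and Tnfrsf18 most like Capg (0.97). Cd27 was most like Sash3 (0.98), a T cell adaptor, and Fas most like Pbx2 (0.78).

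The rest of the pathway was described by lists of genes in Tregs, with changes given as log2 fold changes against PBS. The counts of each list stand beside 26.0%, 31.4% and 31.3% of all genes that were higher with WT IL-2, H16R and the 3x mutein under isotype, and 26.2%, 32.8% and 32.3% that were lower. Under blockade 21.9%, 32.7% and 34.7% were higher and 13.7%, 33.8% and 38.3% lower. A list's count near these shares is not a result about the list. Of 22 other TNF receptors 18 were tested, and with isotype 3 rose and 6 fell with WT IL-2, 3 rose and 10 fell with H16R, and 3 rose and 8 fell with the 3x mutein (median log2 fold changes -0.17, -0.24 and -0.13). Under blockade 8 rose and 2 fell with WT IL-2, 2 rose and 6 fell with H16R, and 2 rose and 7 fell with the 3x mutein (medians 0.28, -0.19 and -0.21). Without both libraries with high B cell sums, where 17 were tested, the counts with WT IL-2 were 2 and 5 with isotype and 5 and 3 under blockade. Tnfrsf13b, a receptor for the B cell factors BAFF and APRIL, rose with all 3, by 0.28 to 0.30. Tnfrsf25, the receptor for TL1A, did not pass with isotype (-0.06 to -0.08) but fell under blockade with H16R by 0.43 and with the 3x mutein by 0.72. Cd40 and Tnfrsf17, receptors of B and plasma cells, fell with all 3 forms of IL-2 in the isotype arm. The log2 fold changes of Cd40 were -1.96, -3.19 and -3.47 and those of Tnfrsf17 -0.84, -1.84 and -3.77 with WT IL-2, H16R and the 3x mutein, and under blockade with WT IL-2 they were 1.06 and 1.25. Without both libraries with high B cell sums, a choice made after seeing the data, those of Cd40 with isotype were -1.17, -2.40 and -2.68, and under blockade with WT IL-2 it had 0.25 (adjusted p = 0.521). Tnfrsf17 then had -0.72 with WT IL-2 and isotype (adjusted p = 0.12) and kept the other 3 calls named here. The B cell sum in isotype Tregs was 127 to 704 CPM with PBS, 52.5 to 96.3 CPM with WT IL-2, 29.8 to 39.7 CPM with H16R and 28.5 to 37.4 CPM with the 3x mutein. Tnfrsf17 is itself 1 of the 4 plasma cell markers. The part of B and plasma cells in these values was not tested.

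Of 18 ligands 14 were tested, of which 2 rose and 7 fell with WT IL-2, 2 rose and 9 fell with H16R and 2 rose and 10 fell with the 3x mutein, all with isotype (medians -0.25, -0.56 and -0.62). Lta, encoding lymphotoxin alpha, fell by 0.96, 1.51 and 1.53 with WT IL-2, H16R and the 3x mutein, and under blockade by 0.32, 1.44 and 1.76. Tnf, the ligand of the Tnfrsf1b product, had 0.05 with WT IL-2 (adjusted p = 0.73), -0.37 with H16R and -0.32 with the 3x mutein. It was higher under blockade than with isotype in WT IL-2 mice, by 0.99 (adjusted p = 3.5e-08), and by 0.98 without both libraries with high B cell sums. In the same comparison the myeloid sum was 197 to 915 CPM against 110.2 to 139 CPM and the NK and CD8 T cell sum 112 to 208 CPM against 39.8 to 54.9 CPM, and their part was not tested. Tnfsf10, encoding TRAIL, rose with all 3 forms in both arms, by 0.31 to 0.88. Tnfsf9, the ligand of Tnfrsf9, rose with isotype by 0.36 to 0.61, and Tnfsf4, the ligand of Tnfrsf4, fell by 0.53 to 1.25, but both were scarce, at means of 2.65 and 1.16 CPM. Under blockade 2 of the 14 ligands rose and 3 fell with WT IL-2, 3 and 7 with H16R and 3 and 7 with the 3x mutein (medians 0.05, -0.30 and -0.42).

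Among 21 TRAF, IAP and IKK genes, all tested, with isotype 9 rose and 6 fell with WT IL-2, 11 and 4 with H16R and 7 and 4 with the 3x mutein, with medians of 0.05, 0.08 and 0.02. Without both libraries with high B cell sums the counts with H16R were 9 and 6. The falls with WT IL-2 and the rises with the 3x mutein are close to the shares of all genes. Traf1, an adaptor of TNFR2 and CD137, rose by 0.23 with WT IL-2 and 0.21 with H16R and had 0.02 with the 3x mutein (adjusted p = 0.76). Traf3 and Birc3, which act together in restraining non-canonical NF-kB, fell with all 3 by 0.15 to 0.31. Under blockade 2 of the 21 genes rose and 3 fell with WT IL-2, 8 and 6 with H16R and 6 and 9 with the 3x mutein (medians 0.02, 0.01 and -0.07).

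Of 15 death receptor signalling genes, 10 rose and 1 fell with WT IL-2, 13 rose with H16R and 12 rose with the 3x mutein in the isotype arm, and under blockade 5, 11 and 12 rose (medians 0.29, 0.31 and 0.29 with isotype). Ripk3, a kinase of necroptosis, rose by 0.52, 0.60 and 0.68 with isotype and by 0.23, 0.87 and 1.09 under blockade. Casp8, the initiator caspase downstream of Fas, fell by 0.12 with WT IL-2 and had 0.00 and -0.01 with the muteins.

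Of 14 NF-kB genes and inhibitors, all tested, 13 were higher in Tregs than in Tcons of PBS mice (24.5% of all genes were), with a median of 0.57 on the log2 scale beside -0.02 over all genes. With isotype 4 rose and 1 fell with WT IL-2, 2 rose and 6 fell with H16R and 2 rose and 8 fell with the 3x mutein, and the rises with WT IL-2 are close to the share of all genes. Nfkbia, which encodes the inhibitor IkB-alpha, rose with all 3, by 0.27 to 0.33. Relb and Nfkb2, the non-canonical pair, had -0.11 and -0.13 with WT IL-2 (adjusted p = 0.29 and 0.18), and fell with H16R by 0.45 and 0.47 and with the 3x mutein by 0.65 and 0.59. With WT IL-2, blockade against isotype lowered 11 of the 14 (15.3% of all genes) and raised 0. It lowered 7 and raised 0 with PBS (8.13% of all genes were lower), lowered 5 and raised 2 with H16R (15.2%), and lowered 7 and raised 3 with the 3x mutein (26.9%). The interaction of WT IL-2 with blockade passed for 1 of the 14, as negative, where 7.98% of all genes had a negative interaction.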

How the data were processed

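Poly(A) RNA of magnetically purified Tregs and Tcons was sequenced from stranded libraries. According to the study's methods, the authors aligned reads to the mouse B38 genome with OSA in Omicsoft Array Suite and deposited RSEM expected counts per gene. The authors also deposited FPKM values from the same quantification. The submitters' notes name DESeq2 1.30.1. The strand setting is not given in the sources used here, and 0 columns belonged to other samples.

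Expected counts were rounded. Protein-coding genes (GENCODE vM21) above 0.5 CPM in at least 4 libraries were tested with edgeR 4.0.16 (R 4.3.3), TMM factors and the quasi-likelihood test, and p-values were adjusted by Benjamini-Hochberg across every gene in the fit, with 0.1 as the threshold. The 32 Treg libraries gave 1 fit (12392 genes), the 16 mice with both cell types another with the mouse as a block (12844), and the 16 Tcon libraries one more with treatment and antibody arm (12526). The labels give mouse numbers that tie each Tcon library to a Treg library, and the differences of the 2 mice of a group correlated between cell types at 0.214 to 0.614 in all 8 groups. Intervals are 95%. CPM use the total expected count per library. DESeq2 1.42.0 and limma 3.58.1, other scalings, filters, the replicate block and leaving out libraries were alternatives. The fits were tested on simulated data. Promoters came from RefSeq (GRCm38.p6). Pathway genes were named by level and by the size of change with isotype IL-2, up to 4 for level and 3 for each direction per list. The members and lists were chosen with earlier results of these data known. In isotype WT IL-2, 2 libraries carry the same mouse number and were taken as different mice (3a and 3b).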

Additional observations from a re-analysis of the deposited data

Results flagged for a closer look

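Among the 48 sets of 4 Treg libraries (6 genes in 8 groups), 2 held a library far from the other 3 by the gap relative to the range, and chance gives about 1 in 20. Cd27 in isotype PBS had its lowest library at 186.9 CPM, below 3 libraries at 204 to 206 CPM. Fas in isotype WT IL-2 had its highest library at 30.24 CPM, above 3 at 27.6 to 28.0 CPM.

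Of 48 tests of whether a response differed between antibody arms or cell types, 33 passed the adjusted threshold in edgeR's quasi-likelihood test. The log2 differences of the WT IL-2 response under blockade were -0.547 for Tnfrsf4, -0.6383 for Tnfrsf9, -0.4149 for Tnfrsf18, -0.6825 for Tnfrsf1b and -0.5719 for Cd27. Those of the H16R response were 0.3968 for Tnfrsf4 and -0.2978 for Cd27. Those of the 3x mutein response were 0.5121 for Tnfrsf4, 0.3758 for Tnfrsf9, 0.37 for Tnfrsf1b, -0.2852 for Cd27 and -0.3706 for Fas.

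The gap between H16R and WT IL-2 differed between the arms by 0.9437 for Tnfrsf4, 0.6368 for Tnfrsf9, 0.5277 for Tnfrsf18, 0.8057 for Tnfrsf1b and 0.2742 for Cd27. The gap between the 3x mutein and WT IL-2 differed by 1.059 for Tnfrsf4, 1.014 for Tnfrsf9, 0.5933 for Tnfrsf18, 1.052 for Tnfrsf1b, 0.2868 for Cd27 and -0.3385 for Fas.

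Between Tregs and Tcons, the WT IL-2 response differed by 0.344 for Cd27. The H16R response differed by 0.5144 for Tnfrsf4, 0.7869 for Tnfrsf9, 0.7835 for Tnfrsf1b and 0.6328 for Cd27. The 3x mutein response differed by 0.7206 for Tnfrsf4, 1.055 for Tnfrsf9, 0.4307 for Tnfrsf18, 0.8451 for Tnfrsf1b and 0.4447 for Cd27.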

How the results depend on the processing

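Over 8100 alternative values of single genes, 7836 kept their side of the threshold, 195 lost the call (97 of them by asking for a 2-fold change or more in either direction), 69 gained one and 0 reversed. Direction was compared only where the main or the alternative value was called. Leaving out 1 library at a time, 73 of 5760 lost the call and 45 gained one. The replicate numbers of Treg libraries mark no shared mouse: same-numbered libraries correlated at -0.48 to 0.66 with a median of 0.02, against -0.01 for other numbers. With the replicate block 125 of 126 values were the same, and Tnfrsf1b with H16R against WT IL-2 under isotype lost its call (-0.18, adjusted p = 0.141). Without the mouse block, Tnfrsf4 lost its H16R response difference between cell types (0.51, adjusted p = 0.211).

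Asking for a log2 fold change of 1 or more left 0 of the 6 genes in every Treg comparison of treatments, arms or their interaction that had a call, except 3 for the 3x mutein against WT IL-2 between arms. It left 0, 0 and 1 for WT IL-2, H16R and the 3x mutein between cell types, and 0 for WT IL-2 and H16R in Tcons. WT IL-2 against PBS under blockade, with 2 calls, had 0 with total counts in place of TMM, 1 with RLE size factors, 0 with no CPM filter, 1 with CPM above 1, 1 with all biotypes, 0 with limma on log2(FPKM + 1), 0 on log2(FPKM + 0.1) and 4 without both libraries that stand apart. The cause of each was not tested. Without those 2 libraries, blockade against isotype gave 1 call with PBS and 1 with H16R, and the 3x mutein against H16R gave 2 in each arm. The latter also gave 2 with DESeq2 in each arm, 2 with only the compared groups in the isotype fit and 2 with total counts under blockade. In Tcons, H16R gave 0 with RLE or with CPM above 1, and blockade gave 1 with DESeq2.

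Leaving out 1 library at a time, the counts of genes called ran from 5 to 5 for WT IL-2, 6 to 6 for H16R and 6 to 6 for the 3x mutein with isotype, and 0 to 4, 5 to 5 and 5 to 6 under blockade. Blockade against isotype gave 1 to 2 with PBS, 5 to 5 with WT IL-2, 0 to 1 with H16R and 2 to 6 with the 3x mutein. H16R and the 3x mutein against WT IL-2 gave 1 to 5 and 4 to 4 with isotype and 5 to 6 and 5 to 6 under blockade, and the 3x mutein against H16R 1 to 2 and 1 to 3. Differences of response between arms gave 5 to 5, 1 to 3 and 4 to 6 for WT IL-2, H16R and the 3x mutein, and 5 to 6 and 6 to 6 for the muteins against WT IL-2. Tregs against Tcons gave 6 to 6, differences between cell types 0 to 3, 3 to 4 and 5 to 5, and Tcons 0 to 1, 0 to 1, 0 to 1 and, for blockade, 0 to 2. With 2 mice a group, the Tcon intervals are wide, and Fas has the lowest counts.

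Some calls were gained on leaving out 1 library. Fas passed for WT IL-2 against PBS under blockade without block WT IL-2 replicate 3 (adjusted p = 0.0577), for blockade with H16R without block WT IL-2 replicate 1 or 3 or isotype H16R replicate 2 (0.0714 to 0.0956), and for the H16R response between arms without any of 10 libraries (0.0549 to 0.0999). Tnfrsf18 passed for blockade with the 3x mutein without block 3x replicate 2 or isotype 3x replicate 1 (0.0253 to 0.0759), and in Tcons Tnfrsf9 passed for the 3x mutein without isotype WT IL-2 replicate 2 (0.0577). Tnfrsf1b passed for the 3x mutein against H16R with isotype without any of 4 libraries (0.0774 to 0.0977), and Tnfrsf9 under blockade without any of 3 (0.0371 to 0.0972).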
